A study of Mus musculus with 12 samples.

Results

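The chemokine genes *Ccl2*, *Ccl5*, *Ccl7*, *Cxcl1*, *Cxcl5*, *Cxcl10*, *Cxcl12*, and *Cx3cl1* were followed across the 4 substrates on which mouse myoblasts were cultured. These 8 genes, of the 55536 in the table of read counts, were selected on their counts in these same 12 samples, in which earlier results were already known, and no threshold was given for the choice. Their levels and differences between groups are therefore a description and carry no test. RNA came from C2C12GFP cells, a myoblast line carrying green fluorescent protein. The control cells grew without a coating, and the others on Collagen I, on fibronectin, or on Geltrex™. Geltrex™ is a basement membrane matrix of laminin, Collagen IV, and entactin with reduced growth factors, and it was applied as a thin gel. Each group had 3 samples, all groups came from the same line, and the study induced its cultures to differentiate in low-serum medium. The day on which the RNA was taken is not given in the sources used here, nor whether the samples of a group were separate cultures, so that their spread may be technical.

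Chemokines are small secreted proteins that steer the movement of cells by binding receptors that couple to G proteins. They are classed by the first cysteines of the mature protein, which are adjacent in the CC class, set apart by a single residue in the CXC class, and set apart by several residues in CX3C. In muscle, myogenic cells and fibers secrete chemokines that draw monocytes and neutrophils to injured tissue, and CXCL12 guides migrating muscle precursors through its receptor CXCR4. NF-kB and interferon signaling are well-known inducers of many inflammatory chemokine genes, whereas *Cxcl12* is largely constitutive.

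The coding stretches around these cysteines are shown to place each gene in its class. They were read from GENCODE M21 transcripts on GRCm38 with 15 bases on each side, and capitals mark the codons of the cysteines.
*Ccl2*: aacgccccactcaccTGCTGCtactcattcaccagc
*Ccl7*: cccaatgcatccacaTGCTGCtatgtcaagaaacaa
*Ccl5*: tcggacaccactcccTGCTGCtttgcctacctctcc
*Cxcl1*: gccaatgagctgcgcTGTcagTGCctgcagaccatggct
*Cxcl5*: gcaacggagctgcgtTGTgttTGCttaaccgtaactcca
*Cxcl10*: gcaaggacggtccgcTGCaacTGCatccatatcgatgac
*Cxcl12*: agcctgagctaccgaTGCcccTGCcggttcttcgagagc
*Cx3cl1*: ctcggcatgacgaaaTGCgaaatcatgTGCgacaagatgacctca
The codons just before the first cysteine of *Cxcl1* and *Cxcl5* read glutamate, leucine, arginine. This ELR motif marks the CXC chemokines that bind CXCR2 and attract neutrophils, and *Cxcl10* and *Cxcl12* do not have it there. *Ccl2* (chr11:82035571-82037453, plus strand, stretch at chr11:82036491-82036526) and *Ccl7* (chr11:82045712-82047525, plus strand, stretch at chr11:82046523-82046558) are neighbors 8258 bases apart, and *Ccl5* lies on the same chromosome (chr11:83525778-83530518, minus strand, stretch at chr11:83529227-83529262). *Cxcl5* (chr5:90759360-90761624, plus strand, stretch at chr5:90759712-90759750) and *Cxcl1* (chr5:90891241-90893115, plus strand, stretch at chr5:90891481-90891519) are 129616 bases apart, and *Cxcl10* is farther along chromosome 5 (chr5:92346638-92348889, minus strand, stretch at chr5:92348166-92348204). *Cxcl12* (chr6:117168535-117181367, plus strand, stretch at chr6:117171493-117171531) and *Cx3cl1* (chr8:94772009-94782427, plus strand, stretch at chr8:94778036-94778080) each stand alone on their chromosome among the 8. All 8 stretches are within coding exons.

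RefSeq promoter windows on GRCm38.p6, from 250 bases before to 50 after the start, were at hand for *Cxcl1*, *Cxcl10*, *Cxcl12*, and *Cx3cl1*. Their 250 bases before the start were searched on both strands for the NF-kB consensus, for the interferon response core (GAAA, NN, and GAAA again), and for TATAAA. Matches in the 50 bases after the start were not kept. Of 32851 promoter windows, 4.51% held the NF-kB consensus, 3.44% the interferon core, and 13.6% TATAAA. These shares are for the whole windows, with the 50 bases after the start, and so for a longer stretch than that searched in the 4 genes. The windows of *Cxcl1* and *Cxcl10* are shown in part, since the matches are in them, with the NF-kB and interferon matches in capitals.
*Cxcl1* (chr5:90891154-90891204, plus strand): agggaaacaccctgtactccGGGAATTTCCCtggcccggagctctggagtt
*Cxcl10* (chr5:92348963-92349122, minus strand): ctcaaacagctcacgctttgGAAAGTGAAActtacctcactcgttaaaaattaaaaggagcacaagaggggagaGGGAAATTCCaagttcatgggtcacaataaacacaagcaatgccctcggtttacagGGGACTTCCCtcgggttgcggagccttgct
The single run of capitals in *Cxcl1* holds 2 overlapping matches to the NF-kB consensus, on opposite strands, which begin 71 and 70 bases before the start. In *Cxcl10*, the interferon core begins 213 bases before the start and is followed by 2 NF-kB matches, at 159 and 103 bases. No match to either was found in the 250 bases before the start of *Cxcl12* and *Cx3cl1*. TATAAA was found only in those of *Cx3cl1*, 6 bases before the start.

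Total counts lay between 22520404 and 27351766 per sample, and each level is a CPM value, a count divided by the TMM-adjusted library size. A gene was called when edgeR's quasi-likelihood test gave a Benjamini-Hochberg adjusted p of at most 0.05 over the 14499 genes tested and the fold change was at least 2. All 8 chemokine genes passed the filter on low counts, *Ccl5* and *Cxcl10* only through their counts on Geltrex™. On Geltrex™, all 8 were higher than in the control in every sample, which was also so for 25.3% of all genes tested, and 5 of them met the call rule (*Ccl2*, *Ccl5*, *Cxcl1*, *Cxcl5*, and *Cxcl10*). The rule called 9.14% of all genes in Geltrex™ versus control, 4.15% as higher. On fibronectin, *Ccl2* and *Ccl7* met the rule as lower than the control, where it called 6.66% of all genes, 4.23% as lower. On Collagen I versus control, 0 of the 8 met it, against 0.131% of all genes. The samples of 2 groups did not overlap for 17.3% of all genes in Collagen I versus control and 41.6% in fibronectin versus control. This share was 50.4% in Geltrex™ versus control, 51.4% in Collagen I versus fibronectin, 54.7% in Collagen I versus Geltrex™, and 42.7% in fibronectin versus Geltrex™. Since the 8 were chosen with these counts in view, nothing is read from their number against these shares. In bulk RNA, a change in the number of cells that express a gene and a change in RNA per cell cannot be told apart.

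**Figure D1:**
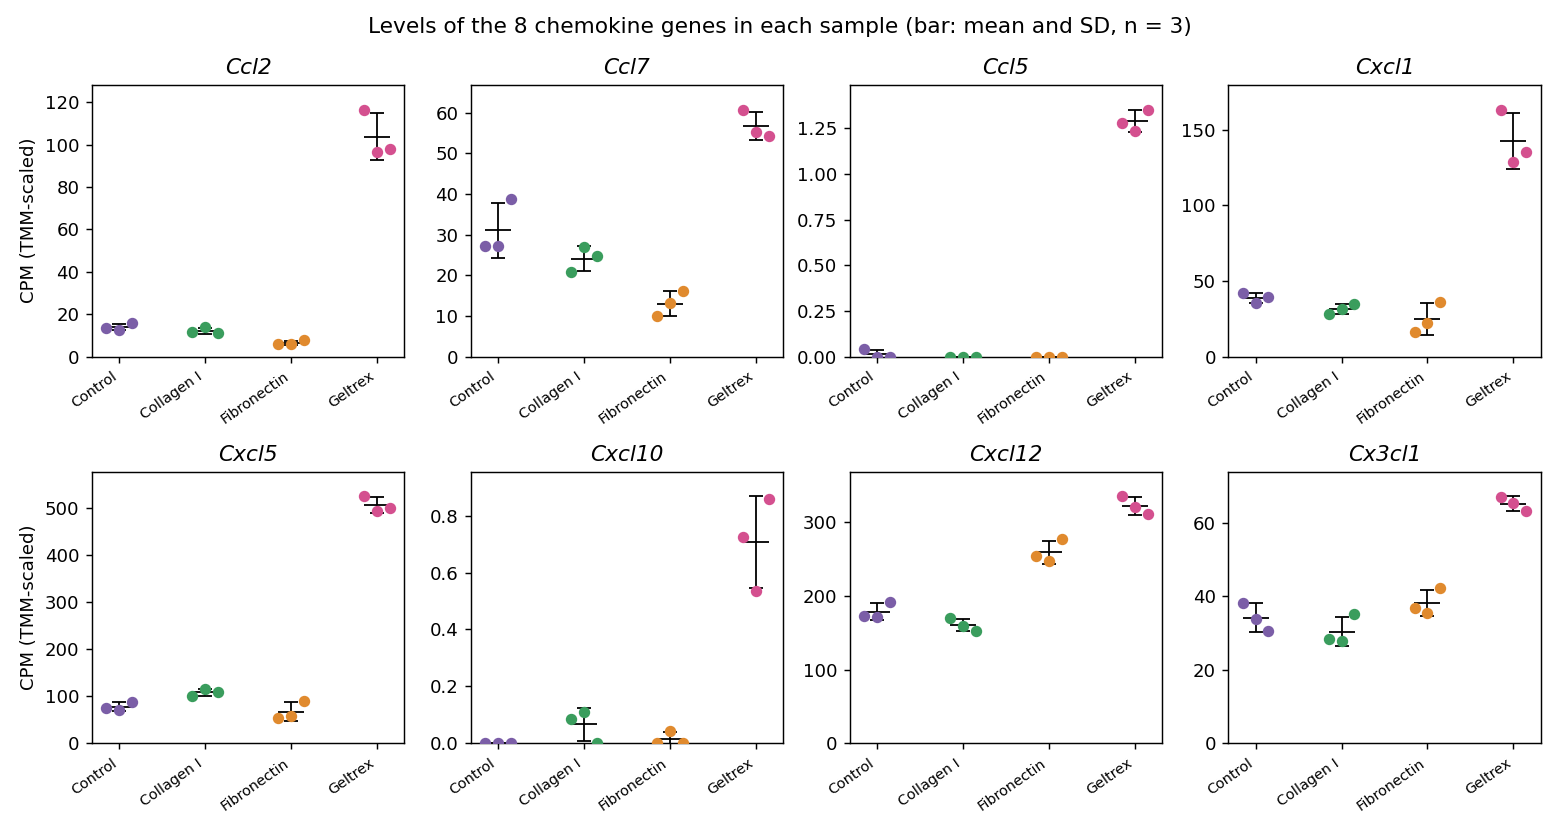
Level of each of the 8 chemokine genes by substrate, in CPM after TMM scaling on axes that start at 0, each with its own scale. Points are samples, and the bars give the mean and SD of 3 samples. The 3 Geltrex™ samples were above the 3 control samples for each gene, which was also so for 25.3% of all genes tested. The genes were selected on these same counts.

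*Ccl2* encodes CCL2 (MCP-1), which recruits monocytes through CCR2. Its level was 13.6, 12.7, and 15.6 CPM in the control samples, 11.5, 13.8, and 11.1 CPM on Collagen I, 6.05, 5.78, and 7.61 CPM on fibronectin, and 117, 96.8, and 98.2 CPM on Geltrex™. The Geltrex™ samples stood far above the rest and the fibronectin samples below it, while control and Collagen I overlapped. Relative to the control, the log2 fold change was 2.90 (SE 0.12) on Geltrex™, -1.11 (SE 0.13) on fibronectin, and -0.20 (SE 0.13) on Collagen I. The level on fibronectin, the lowest group, was 0.0625 times that on Geltrex™, the highest.

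*Ccl7* encodes CCL7 (MCP-3), a close relative that shares the receptor CCR2. Its level was 27.2, 27.1, and 38.9 CPM in the control, 20.8, 26.8, and 24.6 CPM on Collagen I, 9.92, 13.2, and 16.0 CPM on fibronectin, and 60.7, 55.2, and 54.3 CPM on Geltrex™. The order was fibronectin, Collagen I, control, Geltrex™, with no overlap between neighbors, although the highest Collagen I sample and the lowest control sample nearly touched. Of all genes tested, 51.4%, 17.3%, and 50.4% did not overlap in these pairs of neighbors, in that order. The log2 fold change was 0.87 (SE 0.16) on Geltrex™, under the 2-fold minimum, and -1.25 (SE 0.16) on fibronectin. Without the third control sample, the highest, the Geltrex™ value was 1.06 and met the call rule. *Ccl2* and its neighbor *Ccl7* thus had the same lowest and highest group but differed in span, with Geltrex™ means 7.44 and 1.83 times those of the control.

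*Ccl5* encodes CCL5 (RANTES), which attracts T cells and monocytes and is a common interferon-responsive gene. It had 30, 30, and 30 counts on Geltrex™, 1, 0, and 0 counts in the control, and 0 in every Collagen I and fibronectin sample. Over the groups, 90 counts on Geltrex™ against 1 in the control gave a ratio of 97.8 after scaling, with a 95% exact counting interval of 17.1 to 3907. This ratio rests on the count in control sample 1, without which it was a bound of at least 21.8, and it was 62.7 without control sample 2. Against a floor of 3 counts over a group, the level was at least 31.4 times that on Collagen I and at least 32.9 times that on fibronectin. Such intervals and bounds take in counting error alone, because they were computed from counts summed over each group and leave out the spread between samples. The sources used here name no molecular identifiers for the reads. Leaving out Collagen I sample 2 gave a bound of 19.9, and leaving out fibronectin sample 1 or 3 gave 21.3 or 21.8. Even on Geltrex™ the level was low, at 1.29 ± 0.059 CPM (SD, n = 3).

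*Cxcl10* encodes CXCL10 (IP-10), an interferon-inducible ligand of CXCR3 that attracts activated T cells. Counts were 17, 13, and 19 on Geltrex™, 0 in all control samples, 2, 3, and 0 on Collagen I, and 0, 1, and 0 on fibronectin. The Geltrex™ samples were the only ones clear of the others, and no order among the other groups can be read at this depth. The level on Geltrex™ was at least 17.8 times that in the control by the same floor, or at least 11.4 times without control sample 2. It was 10.3 times that on Collagen I and 53.7 times that on fibronectin, with lower ends of the counting interval at 4.11 and 9.20. Without Collagen I sample 2 the first was 16.2. Without fibronectin sample 2, the only one with a count, the second was a bound of at least 12.3, and it was 34.8 or 35.6 without sample 1 or 3. In the annotation, 133 bases of its exons (5.91%) overlap *Art3* on the opposite strand, and whether counting used the strand is not given in the sources used here. *Art3* had 29 to 38 counts in the control, in which *Cxcl10* had 0, and 7 to 20 on Geltrex™.

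*Cxcl1* encodes CXCL1 (KC), an ELR chemokine and neutrophil attractant. Its level was 41.7, 35.1, and 39.6 CPM in the control, 28.3, 31.6, and 34.9 CPM on Collagen I, 16.2, 22.1, and 36.3 CPM on fibronectin, and 163, 129, and 135 CPM on Geltrex™. The fibronectin samples were widely spread, the third overlapping the control and the other two below all of Collagen I. The log2 fold change was 1.88 (SE 0.20) on Geltrex™, -0.64 (SE 0.20) on fibronectin, and -0.30 (SE 0.20) on Collagen I. Without fibronectin sample 3 the fibronectin value was -1.01 and met the call rule.

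*Cxcl5* encodes CXCL5 (LIX), the other ELR chemokine of the 8. Its level was 74.1, 70.4, and 88.1 CPM in the control, 100, 116, and 108 CPM on Collagen I, 53.7, 58.2, and 90.0 CPM on fibronectin, and 524, 492, and 500 CPM on Geltrex™. Here Collagen I was above the control in all samples, the reverse of the other 5 well-counted genes, for which the Collagen I mean was below the control mean. All Collagen I samples were above all control samples for 8.18% of all genes tested. Fibronectin sample 3 was again the highest of its group, and fibronectin and control overlapped. The log2 fold change was 2.71 (SE 0.15) on Geltrex™, 0.48 (SE 0.15) on Collagen I, and -0.20 (SE 0.15) on fibronectin.

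*Cxcl12* encodes CXCL12 (SDF-1), the ligand of CXCR4 and of the scavenging receptor ACKR3. Its level was 173, 171, and 192 CPM in the control, 170, 159, and 153 CPM on Collagen I, 254, 247, and 277 CPM on fibronectin, and 335, 321, and 311 CPM on Geltrex™. All 4 groups were apart, in the order Collagen I, control, fibronectin, Geltrex™, although the highest Collagen I and the lowest control sample were close. Of all genes tested, 17.3%, 41.6%, and 42.7% did not overlap in these pairs of neighbors, in that order. Unlike *Ccl2* and *Ccl7*, *Cxcl12* was higher on fibronectin than in the control, with a log2 fold change of 0.53 (SE 0.078). It stood at 0.85 (SE 0.078) on Geltrex™ and -0.15 (SE 0.078) on Collagen I.

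*Cx3cl1* encodes fractalkine, which is made as a membrane-bound adhesion molecule and shed by the proteases ADAM10 and ADAM17. Its level was 38.3, 33.9, and 30.5 CPM in the control, 28.4, 27.8, and 35.1 CPM on Collagen I, 36.9, 35.3, and 42.2 CPM on fibronectin, and 67.1, 65.5, and 63.1 CPM on Geltrex™. Only the Geltrex™ samples were apart from the rest, and the Collagen I, control, and fibronectin samples overlapped as neighbors. All Collagen I samples were nevertheless below all fibronectin samples, as was so for 25.6% of all genes tested. The log2 fold change was 0.93 (SE 0.11) on Geltrex™ and 0.16 (SE 0.11) on fibronectin. Without control sample 1 the Geltrex™ value was 1.02 and met the call rule.

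Direct comparisons between coatings share their samples with those above and add the distances between the coated groups. In Collagen I versus Geltrex™, all 8 genes met the call rule as lower on Collagen I, where the rule called 9.32% of all genes, 4.56% as lower. Among the 6 well-counted genes, the differences ran from a log2 fold change of -3.10 (SE 0.12) for *Ccl2* to a level of *Cxcl12* 0.499 times that on Geltrex™, which missed the 2-fold minimum without Collagen I sample 3 (-0.97) or Geltrex™ sample 1 (-0.98). In fibronectin versus Geltrex™, 6 met it as lower on fibronectin, against 3.98% of all genes, 2.26% as lower; the other two were *Cxcl12* at -0.31 (SE 0.078) and *Cx3cl1* at -0.77 (SE 0.11). In Collagen I versus fibronectin, 0 of the 8 met it, against 8.46% of all genes. *Ccl2* and *Ccl7* came closest at 0.90 (SE 0.13) and 0.89 (SE 0.17), and without fibronectin sample 3 they met the rule at 1.03 and 1.06. *Cxcl12* was 0.69 (SE 0.078) higher on fibronectin than on Collagen I on the same scale. *Cx3cl1* stood at -0.33 (SE 0.11) in Collagen I versus fibronectin. Over the 6 well-counted genes, the median log2 fold change was 1.40 in Geltrex™ versus control, -0.42 in fibronectin versus control, and -0.19 in Collagen I versus control, while the median of all genes tested lay between -0.016 and -0.0031.

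**Figure D2:**
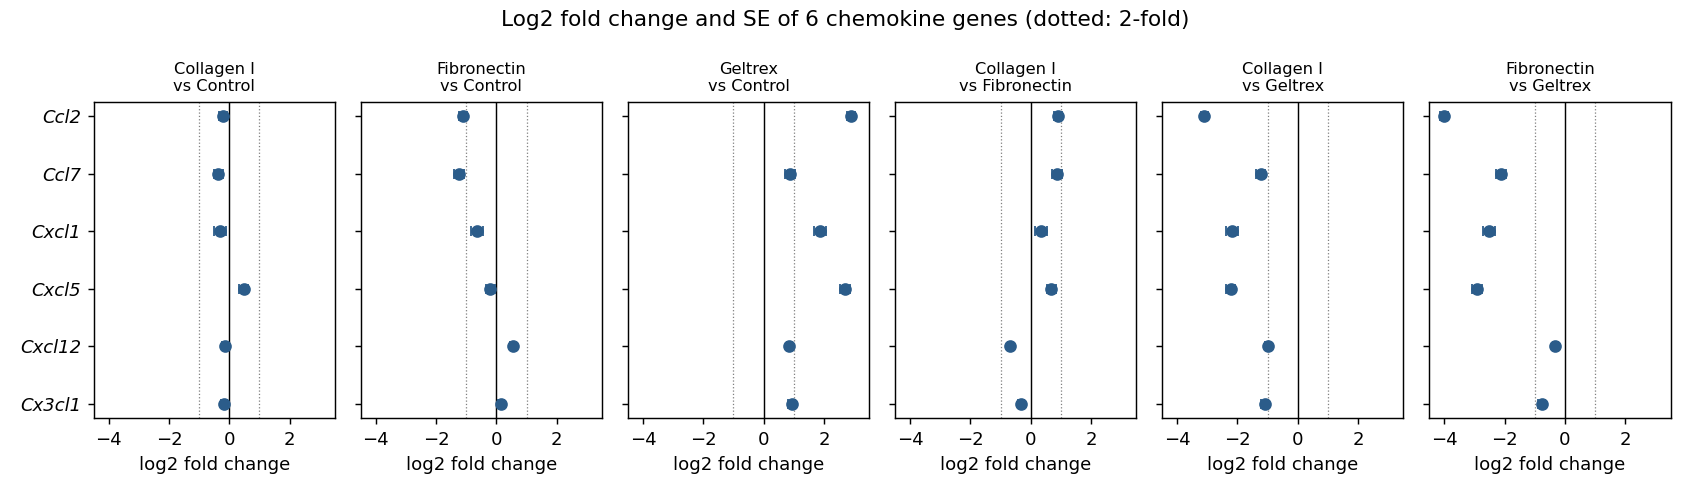
Log2 fold change (horizontal axis) of the 6 well-counted chemokine genes in each of the 6 comparisons, first group relative to the second, with bars for the SE and dotted lines at 2-fold. *Cxcl12* and *Cx3cl1* lie right of 0 in fibronectin versus control, at 0.53 and 0.16, and the other 4 left of it.

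The makeup of the chemokine output was compared between genes per length, as CPM per kilobase of exon. Summed over all 42 chemokine ligand symbols in the table, this level was 167 ± 18.9 (SD, n = 3) in the control, 170 ± 9.72 on Collagen I, 126 ± 23.0 on fibronectin, and 601 ± 36.2 on Geltrex™. The 8 genes made up 86.0%, 84.0%, 89.0%, and 94.3% of it in that order. *Cxcl5* had the largest mean share in each group, at 24.8%, 34.0%, 28.2%, and 45.1%, although between samples it overlapped with *Ccl7* in the control and with *Cxcl12* on fibronectin. The share of *Ccl2* was 7.34% in the control and 15.1% on Geltrex™, while that of *Ccl7* was 23.0% in the control and 11.8% on Geltrex™, although its level was higher there. *Cxcl12*, with a share of 13.1% in the control, made 25.5% on fibronectin and 6.56% on Geltrex™. *Cx3cl1* ranged from 2.76% on Geltrex™ to 7.77% on fibronectin. With the length of the longest coding transcript in place of all exons, a choice made after seeing the data, *Cxcl1* took 19.0% rather than 12.4% in the control and 19.0% rather than 12.6% on Geltrex™, and *Cxcl5* 40.9% on Geltrex™. On that length *Cxcl12* rather than *Cxcl5* had the largest share on fibronectin, at 27.9% against 25.2%.

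**Figure D3:**
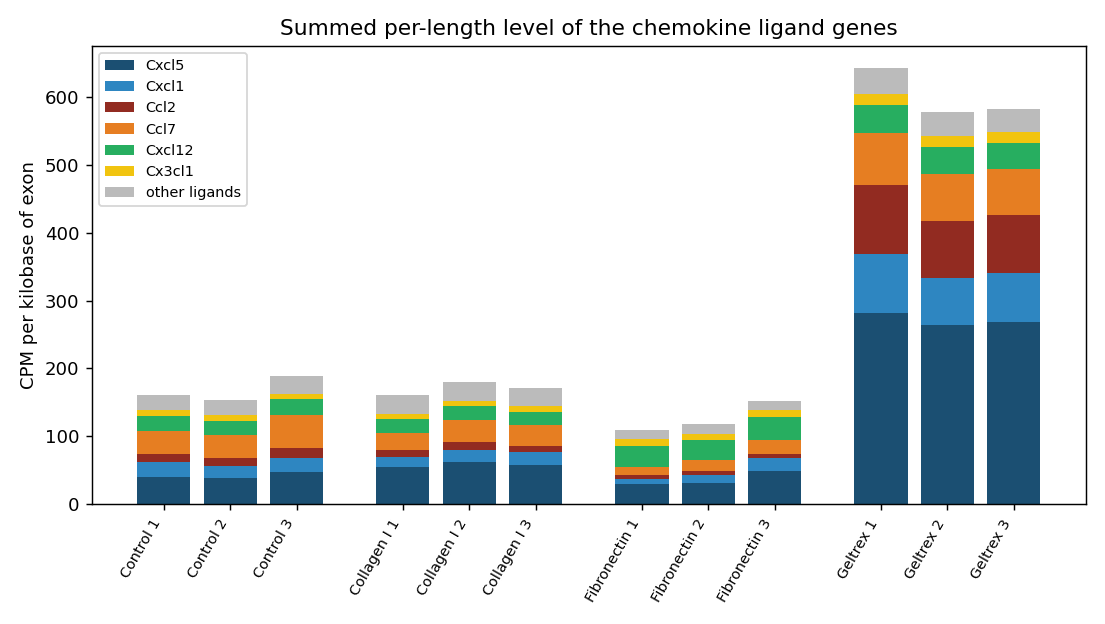
Summed level of the chemokine ligand genes in each of the 12 samples, in CPM per kilobase of exon, stacked by gene. The Geltrex™ bars reach 578 to 643, of which *Cxcl5* makes up the largest part, and the other bars stay at or below 189.

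Of the other 34 ligand symbols, 8 passed the filter on low counts, and these were tested one by one with edgeR and Benjamini-Hochberg adjustment over all genes. *Ccl8*, also of the MCP group, had 68, 95, and 76 counts in the control and 23, 18, and 17 on fibronectin. On fibronectin it fell by 2.05 on the log2 scale (SE 0.26, adjusted p = 2.00e-05) and did not pass on Geltrex™ at -0.19 (adjusted p = 0.548). *Ccl11*, the eosinophil attractant eotaxin, passed the p threshold in both but not the 2-fold minimum, at -0.99 on fibronectin (SE 0.19, adjusted p = 0.00103) and 0.65 on Geltrex™ (SE 0.18, adjusted p = 0.0100). *Cxcl16*, the transmembrane ligand of CXCR6, had the same directions at -0.75 (adjusted p = 0.00409) and 0.63 (adjusted p = 0.00671). *Cxcl13*, a B cell attractant, passed the p threshold on Collagen I at 0.86 (SE 0.14, adjusted p = 0.00586) and on Geltrex™ at 0.98 (SE 0.14, adjusted p = 4.53e-05), short of 2-fold in both. *Ccl9* rose on Geltrex™ by 1.03 (SE 0.27, adjusted p = 0.00881), but without Geltrex™ sample 1 the value was 0.87 (adjusted p = 0.0524) and without control sample 2 it was 0.90. *Cxcl14* fell on Geltrex™ to 1, 1, and 0 counts from 9, 5, and 15 in the control (adjusted p = 0.00324). *Ccl25* and the platelet chemokine *Ppbp* passed in none of the 6 comparisons, with adjusted p-values on Geltrex™ of 0.260 and 0.426. *Cxcl2*, *Ccl3*, and *Ccl4*, inflammatory chemokines typical of myeloid cells, had 0 counts in all 12 samples.

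Receptor genes were mostly at or near 0. Of 24 receptor symbols, 7 passed the filter. *Cxcr2*, which binds the ELR chemokines, and *Cxcr1* and *Cxcr3* had 0 counts in all samples, *Ccr2* at most 2, and *Cx3cr1* at most 8. The CXCL12 receptors were the exception. *Cxcr4* had 1882, 2024, and 1810 counts in the control, 1205, 1162, and 943 on Collagen I, 1377, 1046, and 1288 on fibronectin, and 444, 485, and 425 on Geltrex™. On Geltrex™ it fell by 1.96 on the log2 scale (SE 0.098, adjusted p = 2.29e-09) and passed the p threshold, short of 2-fold, on Collagen I (-0.73, SE 0.093, adjusted p = 0.00141) and fibronectin (-0.64, SE 0.092, adjusted p = 8.36e-05). *Ackr3*, which takes up CXCL12 without G protein signaling, passed it on Collagen I (-0.54, SE 0.089, adjusted p = 0.00718) and Geltrex™ (-0.39, SE 0.088, adjusted p = 0.00283) and stood at 0.039 on fibronectin (adjusted p = 0.771). Per length, *Cxcl12* was 21.9 ± 1.45 CPM per kilobase in the control and 39.4 ± 1.48 on Geltrex™, whereas *Cxcr4* was 41.7 ± 0.76 and 10.7 ± 0.30 and *Ackr3* 56.0 ± 5.65 and 42.6 ± 0.76 (SD, n = 3). Group by group, the highest *Cxcl12* thus stood beside the lowest *Cxcr4*, on Geltrex™, but the lowest *Cxcl12*, on Collagen I, did not stand beside the highest *Cxcr4*, which was in the control.

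**Figure D4:**
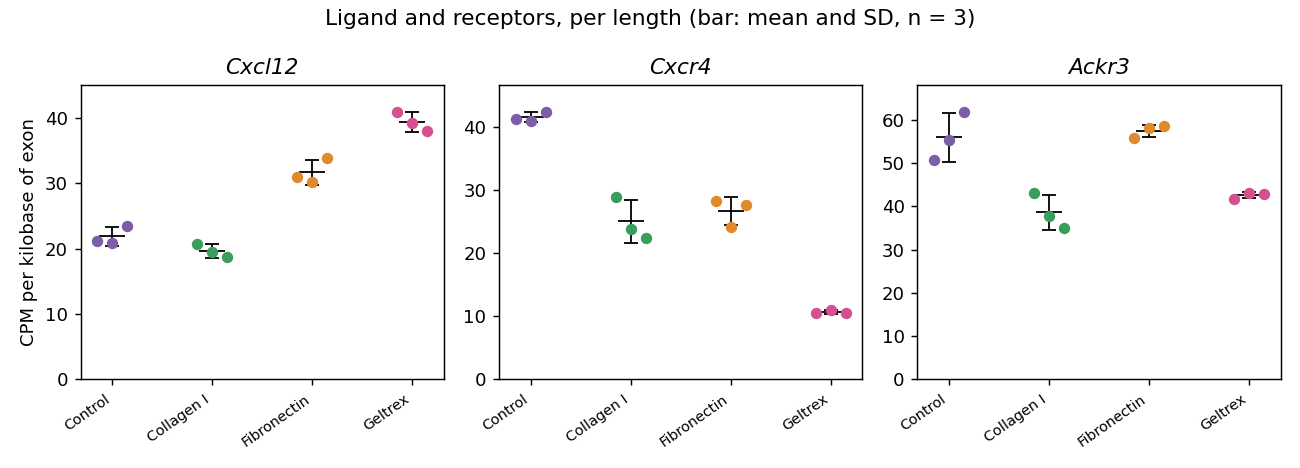
Level of *Cxcl12* and its receptors *Cxcr4* and *Ackr3* by substrate, in CPM per kilobase of exon on axes that start at 0. Points are samples and bars the mean and SD of 3 samples; *Cxcr4* is lowest on Geltrex™ at 10.7 ± 0.30, where *Cxcl12* is highest at 39.4 ± 1.48.

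The other receptors that passed the filter had few counts. *Xcr1* fell, with a log2 fold change of -2.06 on fibronectin (SE 0.37, adjusted p = 0.000529) and -2.73 on Geltrex™ (SE 0.40, adjusted p = 7.54e-05), from 21 to 55 counts in the control to 5 or 6 on Geltrex™. On Geltrex™ *Cxcr6* fell by 1.98 (SE 0.57, adjusted p = 0.0148), with adjusted p-values of 0.0608, 0.0594, and 0.0729 without control sample 1, Geltrex™ sample 1, and Geltrex™ sample 3. *Ccr10* was called lower on fibronectin (adjusted p = 0.0296) at 2 to 4 counts, and the call was lost without any 1 of the control samples or without fibronectin sample 1 or 2 (adjusted p from 0.0524 to 0.120). *Ccr1* and *Ackr4* did not pass against the control on Geltrex™, with adjusted p-values of 0.166 and 0.217. Between coatings, *Ackr4* was called lower on Collagen I than on Geltrex™, at a log2 fold change of -1.21, with 21, 21, and 13 counts against 42, 41, and 39. With the 3 Geltrex™ samples summed into 1 this value was -1.23. Of the 7 receptors tested, 2 were called higher in Collagen I versus fibronectin (4.86% of all genes) and 2 in Collagen I versus Geltrex™ (4.77%). In fibronectin versus Geltrex™, 1 was called higher (1.72%).

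Genes of the signaling routes named above were read from lists chosen with earlier results of these data known. The p threshold without the 2-fold minimum was passed by 33% of all genes on Geltrex™ (16.4% as higher and 16.6% as lower) and by 31.9% on fibronectin (17.1% and 14.7%), and 42.2% and 42.1% had an unadjusted p under 0.05. The counts of the lists are given beside these shares. Of 20 interferon response genes, 18 were tested, and on Geltrex™ 15 rose past 2-fold (4.15% of all genes did), by edgeR as by DESeq2, and 2 passed the p threshold as lower without reaching it, with a median log2 fold change of 2.87 beside -0.012 for all genes. The highest was *Ifi44*, with 140, 150, and 235 counts on Geltrex™ and 1 to 3 in the control. The lowest was *Irf1* at -0.51 (SE 0.092, adjusted p = 0.000448), an interferon regulatory factor. *Ifi44*, *Usp18*, and *Isg15* passed the filter on low counts only through their counts on Geltrex™. Outside Geltrex™ they had at most 3, 7, and 13 counts in any sample. A high level there was thus a condition of their being tested, so the number called and the median are a description. On fibronectin, 0 of the 18 were called by edgeR and 0 by DESeq2, 6 had an unadjusted p under 0.05, 2 passed the p threshold without the 2-fold minimum, and the median was -0.0091. *Isg15* at 1.16 and *Bst2* at -0.71 were its highest and lowest values.

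Of 20 NF-kB pathway and target genes, 18 were tested, and on Geltrex™ 3 rose past 2-fold, against 4.15% of all genes, 9 passed the p threshold as higher, against 16.4%, and none as lower, and the median was 0.26. *Nfkbiz*, a nuclear IkB protein, rose by 1.90 (SE 0.20, adjusted p = 2.37e-06), *Ptgs2*, the inducible cyclooxygenase, by 1.52 (SE 0.15, adjusted p = 1.10e-06), and *Tnfaip3*, the NF-kB inhibitor A20, by 1.27 (SE 0.095, adjusted p = 7.86e-08), whereas *Traf1* was lowest at -0.46 (adjusted p = 0.357). On fibronectin 0 were called by edgeR and 0 by DESeq2, 11 had an unadjusted p under 0.05, 3 passed the p threshold as higher and 5 as lower, against 42.1%, 17.1%, and 14.7% of all genes, and values ran from -0.89 for *Il6* (adjusted p = 0.0904) to 0.41 for *Vcam1* (adjusted p = 0.00393). *Tnfaip3* was among those lower, at -0.43 (adjusted p = 0.00371).

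Among 17 cytokine and cytokine receptor genes, 12 were tested and 0 were called by edgeR or by DESeq2 on Geltrex™ or fibronectin, with 7 and 5 at an unadjusted p under 0.05 and 6 and 2 passing the adjusted threshold, which 33% and 31.9% of all genes passed. Values ran from *Il1b* (-1.23 and -1.01, adjusted p = 0.150 and 0.216) to *Il1rap* (0.84 and 0.98, adjusted p = 0.000812 and 0.000281), the interleukin 1 receptor partner. *Tnf*, *Ifnb1*, and *Il17a* had at most 2, 1, and 0 counts in any sample, and *Il1a* and *Ifng* at most 4 and 11. Of 9 genes of chemokine processing and shedding, 7 were tested. *Adam10*, the sheddase of fractalkine, passed the p threshold on fibronectin at 0.53 (SE 0.089, adjusted p = 0.000359) and on Geltrex™ at 0.42 (SE 0.089, adjusted p = 0.00174), while *Adam17* stood at 0.15 on both. *Mmp9* was highest on Geltrex™ at 1.47 (adjusted p = 0.0447), with 13, 13, and 13 counts against 8, 3, and 4, a call that was lost without control sample 2 or 3, fibronectin sample 3, or any 1 of the Geltrex™ samples (adjusted p from 0.0541 to 0.148) and that DESeq2 did not make. It passed the filter on low counts only through its counts on Geltrex™. *Furin* was lowest there at -0.25 (adjusted p = 0.0450), and *Mmp9* itself was lowest on fibronectin at -0.90 (adjusted p = 0.356).

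**Figure D5:**
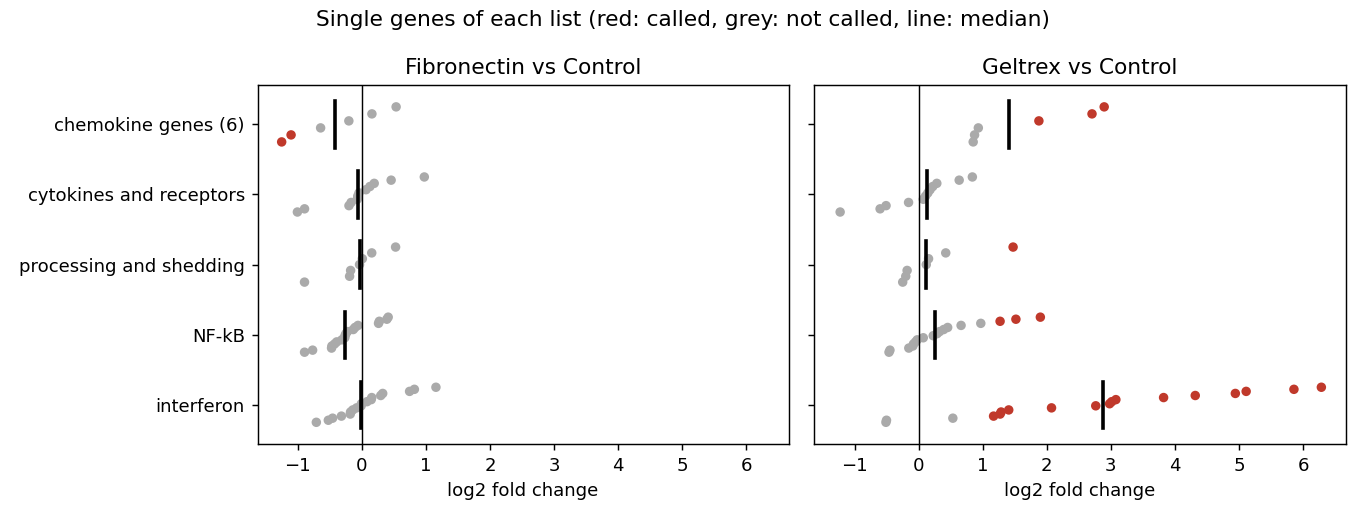
Log2 fold change (horizontal axis) of the single genes of 5 lists in fibronectin versus control and Geltrex™ versus control, red where called and grey where not, with a line at each list's median. On Geltrex™ the interferon list has a median of 2.87 and the 6 well-counted chemokine genes 1.40, and on fibronectin the medians are -0.0091 and -0.42.

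Genes whose pattern was most like that of each well-counted chemokine gene were ranked by Pearson's r of log2 CPM over the 12 samples, among 12319 genes. This is a description, since samples of a group share their substrate. *Cited2*, a transcriptional coregulator, came first for *Cxcl5* (r = 0.99) and *Ccl2* (r = 0.99) and second for *Cxcl1* (r = 0.98), where the matricellular gene *Ccn1* was first. *Amotl2* was also among the likest for *Cxcl5*, and *Trib1* and *Ppp1r15a* for *Ccl2*, while *Ccl2* itself was the third for *Cxcl1*. *Ccl7* was most like *Ccl11* (r = 0.97), a gene of the same CC cluster, followed by *4930453N24Rik* and *Enpp2*. *Cxcl12* was most like *Fam20c* (r = 0.99), *Gas2*, and *Sash1*, and *Cx3cl1* like *Sf1* (r = 0.98), *Dusp5*, and *Smad7*.

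Cell type markers were read beside these values. The summed level of 8 muscle markers, among them *Myog*, *Ckm*, and *Acta1*, was 7172 to 7973 CPM in the control, 7588 to 8236 on Collagen I, 2487 to 2776 on fibronectin, and 3503 to 3889 on Geltrex™. This sum was mostly *Myh3*, *Acta1*, *Des*, and *Ttn*, with control means of 2283, 1785, 1417, and 1392 CPM. *Myog* and *Ckm* had 272 and 26.6 there. Of the 8, 6 were called lower on fibronectin, against 4.23% of all genes, and 5 on Geltrex™, against 4.99%. The muscle sum was thus low both where *Ccl2* and *Ccl7* were lowest and where they were highest, and its part in the chemokine values was not tested. Of 10 leukocyte markers, 1 (*Cd14*) passed the filter, *Adgre1* and *Tyrobp* had 0 counts in all samples, and *Ptprc* had at most 1. Their summed level was 9.39 to 12.2 CPM in the control, 9.71 to 12.8 on Collagen I, 6.70 to 8.39 on fibronectin, and 7.35 to 8.41 on Geltrex™. This sum was mostly *Cd14*, with means of 10.1, 11.0, 7.16, and 7.37 CPM in that order, so its pattern is that of 1 gene. Of 5 endothelial markers, 1 (*Tek*) passed, with sums of at most 3.49 CPM. Of 6 fibroblast markers, 5 passed, and their sum was 2441 to 2951 CPM in the control, 2532 to 2737 on Collagen I, 1993 to 2317 on fibronectin, and 1744 to 1803 on Geltrex™. Most of it was *Dcn*, with means of 2010 CPM in the control and 1316 on Geltrex™. In the same order, *Ly6a* had 346 and 327, *Col1a1* 142 and 62.7, *Lum* 90.5 and 19.2, and *Pdgfra* 38.3 and 42.9. Of the 5, 2 were called lower on Geltrex™, against 4.99% of all genes, and 0 on fibronectin, against 4.23%. The Geltrex™ samples also resembled each other more than other replicates did, with a chi-square per degree of freedom of 2.18 to 4.54 between samples against 7.71 to 64.6 in the other groups. They were kept as 3 samples, as labelled. These values are above 1, that of counting noise, and do not tell whether the samples came from separate cultures.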

How the data were processed

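RNA-seq of 12 samples of C2C12GFP cells was used, 3 in each of 4 groups given by the sample titles. Per the study's methods, Trimmomatic, HISAT2, and featureCounts were run in turn, and the authors deposited the resulting raw read counts per gene, neither pooled nor normalized. The genome build, annotation, and strand setting are not given in the sources used here. All 55536 gene identifiers were found in GENCODE M21 (GRCm38), which gave names, positions, and exon lengths.

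Counts were fitted in R 4.3.3 by edgeR 4.0.16. After filterByExpr (minimum count 10, minimum total 15) and TMM scaling, a single quasi-likelihood fit of the 4 groups with 8 residual degrees of freedom gave 6 comparisons, with Benjamini-Hochberg adjustment over all genes tested. The SE is the log2 fold change divided by the root of the F statistic. The fitted fold changes of *Ccl5* and *Cxcl10*, which depend on the prior count, are not printed; ratios of summed counts over effective library sizes are. The chemokine genes and all gene lists were chosen with earlier results of these data known. The genes named are the 8 chemokine genes, each other ligand and receptor gene that passed the filter, the highest and lowest of each list on Geltrex™ and fibronectin, and the 3 likest genes among those with a mean of at least 1 CPM. *Art3*, *Nfkbiz*, *Ptgs2*, *Tnfaip3*, *Adam10*, *Adam17*, the markers, and genes at or near 0 counts were named after their values were seen. Alternatives were DESeq2 1.42.0, RLE normalization, other count filters, only the groups compared, a replicate block, no fold change minimum, the Geltrex™ samples summed, and each sample left out. The procedure was tested on simulated data. Depth limits the precision for genes of few counts. Some genes that these rules name are not reported here.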

Additional observations from a re-analysis of the deposited data

How the results depend on the processing

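For the 6 well-counted chemokine genes, all 684 values from the alternatives kept the sign of the reported log2 fold change and none moved by more than the spread between replicates, the largest shift being 0.38. The number of the 8 that met the call rule depended mainly on the 2-fold minimum. Without that minimum, 4 rather than 2 met the rule in fibronectin versus control, 8 rather than 5 in Geltrex™ versus control, and 5 rather than 0 in Collagen I versus fibronectin. Of all 14499 genes tested, 4618, 4786, and 6523 then met the rule in these comparisons, in the same order. With at least 10 counts in every sample, *Ccl5* and *Cxcl10* were no longer tested, and 3 met it in Geltrex™ versus control and 5 rather than 8 in Collagen I versus Geltrex™, where *Cxcl12* was also just short at -0.99. Of the 12486 genes then tested, 851 and 855 met the rule in these comparisons, in the same order. Leaving out each sample in turn gave 0 in Collagen I versus control, 2 to 3 in fibronectin versus control, 5 to 6 in Geltrex™ versus control, 0 to 2 in Collagen I versus fibronectin (2 without fibronectin sample 3), 7 to 8 in Collagen I versus Geltrex™, and 6 in fibronectin versus Geltrex™. These fits tested 14761 to 14859 genes. Of all genes, they called 10 to 25, 790 to 1055, 1194 to 1400, 1058 to 1445, 1239 to 1416, and 489 to 668 in that order. The replicate block gave the same numbers as the reported fit, 0, 2, 5, 0, 8, and 6 in the order Collagen I, fibronectin, and Geltrex™ versus control, Collagen I versus fibronectin and Geltrex™, and fibronectin versus Geltrex™. With the block, 18, 969, 1325, 1240, 1351, and 575 of all 14499 genes were called in the same order. The replicate numbers did not pair the samples: correlations of same-numbered deviations from the group means ran from -0.15 to 0.23, and 1 of 12 samples was closest to its own number. With the 3 Geltrex™ samples summed into 1, *Ccl9* (adjusted p = 0.0650) and *Cxcr6* (adjusted p = 0.121) lost their calls against the control; *Ccr10* lost its call on fibronectin with DESeq2 (adjusted p = 0.0622) and with no filter (adjusted p = 0.0966), and *Mmp9* its call on Geltrex™ with both (adjusted p = 0.0856 and 0.114) and with the summed samples (adjusted p = 0.238). Among the other single genes named, 9 calls were lost and 10 gained in at least 1 alternative. Depth limits *Ccl5*, *Cxcl10*, and the receptors other than *Cxcr4* and *Ackr3*, and differences among the 3 groups other than Geltrex™ were not detectable for *Ccl5* and *Cxcl10*.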
